A study of Mus musculus with 6 samples.

Results

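The genes described here are the Trem receptors of myeloid cells and the signalling proteins that most of them share: Trem2, Trem1, Trem3, Treml2, the adaptors Tyrobp and Hcst, the kinase Syk, the phospholipase Plcg2 and the phosphatase Inpp5d. They were chosen by name, and all 9 of 9 were found in the array's annotation, each by 1 transcript cluster (a probe set that stands for a gene), among 30142 genes tested. The RNA came from macrophages of the epididymal fat of C57BL/6J males, fed a normal chow diet (NCD) or a high-fat diet with 60% fat (HFD) for 16 weeks from 6 weeks of age. The mice of both diets were 22 weeks old, and both groups went through the same collagenase digestion and magnetic selection with an antibody to the pan-macrophage surface antigen that Adgre1 encodes. Each diet had 3 arrays, each of 1 pool, written here NCD1 to NCD3 (20 mice a pool) and HFD1 to HFD3 (10 mice a pool), so the spread between mice was not measured. The comparison asked how these transcripts differ in fat macrophages between lean and obese mice.

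Trem1, Trem2 and Trem3 have short tails and signal through a partner adaptor. Tyrobp, also called DAP12, carries an activation motif that Src-family kinases phosphorylate and that then binds Syk, which acts on Plcg2, on phosphoinositide 3-kinase and on linker proteins. Hcst, also called DAP10, binds phosphoinositide 3-kinase, and Inpp5d, also called SHIP1, removes a phosphate from the lipid which that kinase makes. In fat, Trem2 is known as a lipid-sensing receptor and a marker of lipid-associated macrophages, whereas Trem1 is best known from neutrophils and monocytes.

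Of the 9 genes, 1 rose, Trem2, and 0 fell (limma, Benjamini-Hochberg adjusted p below 0.05 over all genes; 2 were higher and 0 lower at an unadjusted p below 0.05). Across all genes 7.83% were called, 4.96% higher and 2.87% lower, so 1 of 9 is near the background share and the count by itself is no result about the set. Trem2 differed from the others in size: it was 7.19-fold higher after HFD, while the changes of the other 8 lay between −0.29 and 0.87 log2. Of the 9, 8 had a mean above background, the level of 6.23 log2 that probes with no target in the genome set, and Treml2 did not. With each array shifted to the same median, 2573 genes were higher and 693 lower in place of 1494 and 865, and the members' count was the same. Changes are given as log2 differences, HFD less NCD, ± the standard error from limma over 3 arrays per diet.

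**Figure D1:**
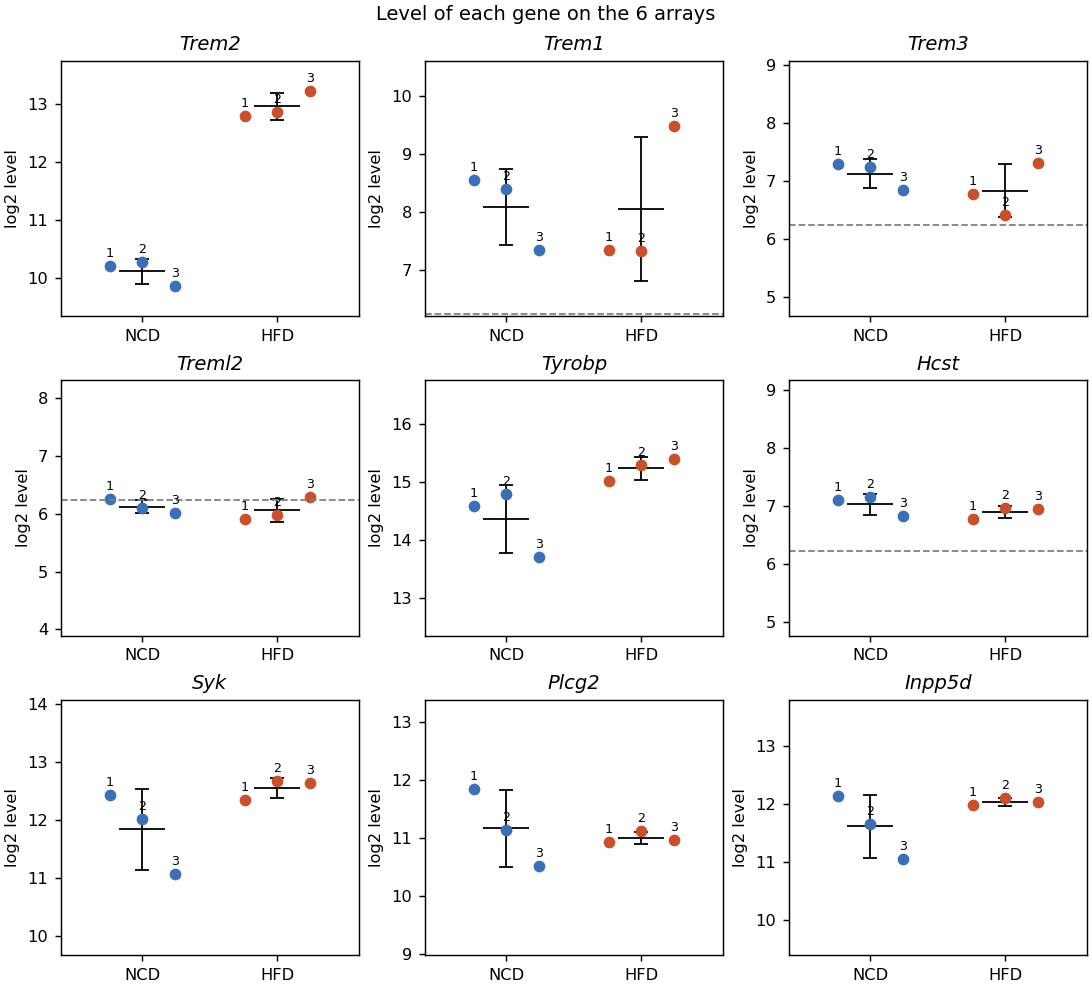
Log2 level of each gene on the 6 arrays (points numbered by replicate), with the mean and SD of each diet as black bars and the background level of 6.23 as a dashed line where it falls in the panel; every panel spans the same log2 range. Trem2 separates the diets by 2.52 log2 units, Tyrobp separates them by 0.22, and the other 7 overlap between diets.

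Trem2 was at 10.20, 10.26 and 9.86 on the NCD arrays and 12.78, 12.86 and 13.21 on the HFD arrays. Every HFD array lay above every NCD array, and the spread within a diet was small beside the gap. The means were 10.11 ± 0.22 (SD, n = 3) in NCD and 12.95 ± 0.23 (SD, n = 3) in HFD, a change of 2.85 ± 0.17 (adjusted p = 0.00143; 95% interval of the fold 5.42 to 9.55). The call held in all 16 alternative settings and fits, at changes of 2.61 to 2.94 and adjusted p of 0.000865 to 0.0377. In such pooled cells, more macrophages that carry Trem2 and more Trem2 RNA per cell cannot be told apart.

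Trem2 was also higher after HFD within arrays, relative to markers of macrophages. All 11 measured markers of that list, among them Adgre1, Csf1r, Itgam and Lyz2, lay above background (2 rose, Cd68 at 1.20 and Fcgr1 at 1.43, and 2 fell, Mertk at −0.49 and Cd163 at −2.97), and their mean level was 13.76 to 14.49 in NCD and 14.07 to 14.25 in HFD. Trem2 minus that mean was −4.29, −4.12 and −3.90 on the NCD arrays and −1.29, −1.36 and −1.04 on the HFD arrays, a difference between diets of 2.87 log2 without overlap (two-sided exact permutation p = 0.1, the smallest that 3 against 3 allows). These markers went both ways, so Trem2 was also set against each: its difference between diets was 1.94 relative to Adgre1, the gene of the selected antigen, and ran from 1.42 (Fcgr1) to 5.81 (Cd163), without overlap for any of the 11. Relative to its adaptor Tyrobp, Trem2 was 1.97 higher in HFD, again without overlap, at −4.26 ± 0.36 (SD, n = 3) in NCD and −2.29 ± 0.13 (SD, n = 3) in HFD. Against each of the other 7 genes the same difference was 2.13 to 3.14, and all 9 such comparisons had an exact permutation p of 0.1, before and after Benjamini-Hochberg adjustment. Each difference is the change of Trem2 less that of the other gene or marker mean. These comparisons therefore restate those changes and are no separate evidence.

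The genes whose pattern was most like that of Trem2, by the root mean square difference between mean-centred log2 levels over the 6 arrays, were taken from 15746 other genes above background. They were Slc27a1, a fatty acid transport protein (difference 0.12), Mfsd12, a lysosomal membrane transporter (0.14), Ttyh2 of the tweety family (0.14), Plau, the urokinase plasminogen activator (0.16), and Nkain1 (0.17). Slc27a1 was at 9.76, 9.89 and 9.23 on the NCD arrays and 12.05, 12.39 and 12.62 on the HFD arrays, so it shared with Trem2 the lowest level on NCD3 and the highest on HFD3. The changes of the 5 genes lay between 2.64 (Plau) and 3.09 (Ttyh2), close to that of Trem2 as the choice implies. The NCD level of Nkain1, 6.04, was below background, and its HFD mean was 6.09-fold above background. That figure leaves out the spread between arrays, so it is no lower limit. The measured rise of Nkain1, which a level below background can understate, was 6.96-fold, with a 95% interval of 4.82 to 10.06.

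Trem2 lies on chromosome 17 in a cluster of Trem genes. The promoters of Trem2, which rose, and of Trem1, its relative in that cluster that was not called, are printed to set them side by side: each line is the 250 bases before the annotated start (RefSeq, GRCm38.p6, plus strand), with matches to 3 motifs in capitals. The motifs, searched on both strands, were GAGGAA, a core that PU.1 and other ETS factors bind, TGANTCA, the AP-1 motif loosened to any base at its centre, and CACGTG, the E-box of MITF and TFEB. No match overlapped another here.

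Trem2 promoter, chr17:48346151-48346400: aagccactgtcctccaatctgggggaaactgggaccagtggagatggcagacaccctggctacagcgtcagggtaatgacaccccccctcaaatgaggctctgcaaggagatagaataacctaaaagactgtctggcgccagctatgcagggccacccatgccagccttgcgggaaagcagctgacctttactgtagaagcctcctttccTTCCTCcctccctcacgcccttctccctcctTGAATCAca

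Trem1 promoter, chr17:48232489-48232738: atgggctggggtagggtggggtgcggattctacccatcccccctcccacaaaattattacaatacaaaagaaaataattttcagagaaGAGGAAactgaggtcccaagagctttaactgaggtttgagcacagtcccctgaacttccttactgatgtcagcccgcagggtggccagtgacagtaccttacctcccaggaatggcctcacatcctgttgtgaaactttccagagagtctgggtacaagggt

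The Trem2 window had a GAGGAA match on the minus strand at bases −40 to −35 from the start and a TGANTCA match at −9 to −3. That second match reads TGAATCA, so it rests on the loosened base at the centre. The Trem1 window had a GAGGAA match on the plus strand at −162 to −157. Of 32851 promoter windows of this length, 23.3% held GAGGAA, 6.75% TGANTCA and 6.02% CACGTG. Of the other members in the table, Inpp5d held GAGGAA at −20 to −15, 1 of the 2 starts of Syk held it at −9 to −4, Plcg2 held CACGTG at −20 to −15, and Hcst held 0 of the 3 motifs. These matches describe letters and were not read as binding. The table held 6 of the 9 genes, without Tyrobp, Trem3 and Treml2.

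From Foxp4 to Nfya, which flank Trem2, the RefSeq table of GRCm38.p6 holds 24 genes in order. Of these, 15 were measured and 2 were called, Trem2 and Nfya. Across all genes 7.83% were called, and several of the 15 had a mean below background, so the count by itself is no result about the locus. Nfya, a subunit of the CCAAT-binding factor NF-Y, lies next but 1 to Trem2 and rose 2.01-fold (1.01 ± 0.13, adjusted p = 0.00955), with 10.53, 10.52 and 10.52 on the NCD arrays and 11.34, 11.70 and 11.55 on the HFD arrays. That call was lost when HFD2 or HFD3 was left out, and when the mean of endothelial markers was a covariate (0.89). Between Nfya and Trem2 lies Treml1, a platelet receptor, which was below background on all 6 arrays and was at 0.29 ± 0.10 (adjusted p = 0.128). Treml4, a receptor of myeloid cells, was at 10.11, 8.93 and 8.22 on the NCD arrays and 8.78, 8.73 and 8.20 on the HFD arrays, with NCD1 apart from the rest, and was not called (−0.52 ± 0.46, adjusted p = 0.567).

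**Figure D2:**
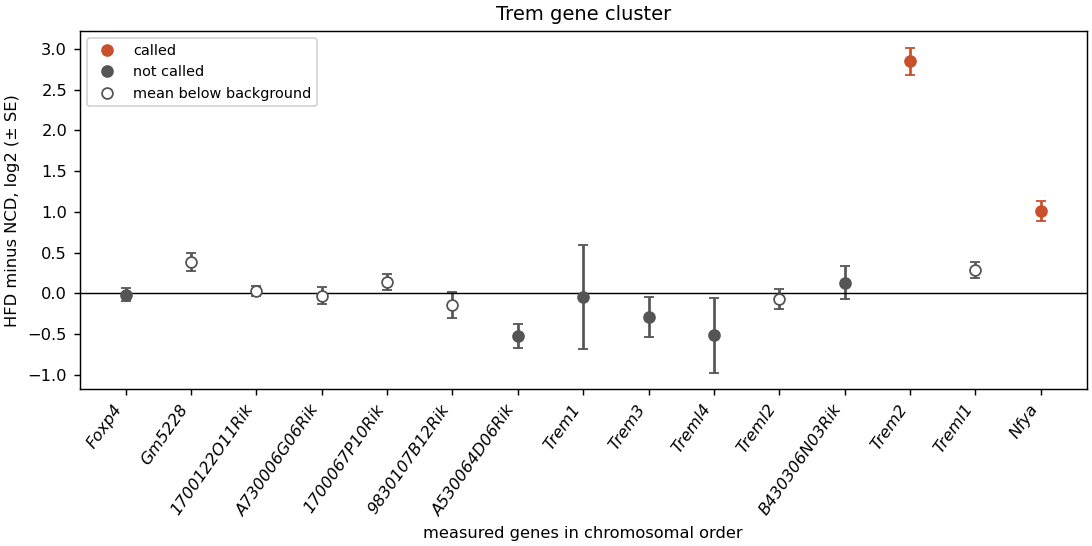
Change between diets (log2, ± SE from limma, 3 arrays per diet) of the 15 measured genes from Foxp4 to Nfya, in chromosomal order at equal spacing; open points have a mean below background. Trem2 stands at 2.85 and Nfya at 1.01, and the others lie between −0.52 and 0.38.

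The other Trem receptors were not called. Trem1, an amplifier of inflammatory responses, was at 8.54, 8.39 and 7.34 on the NCD arrays and 7.34, 7.32 and 9.48 on the HFD arrays. Thus HFD3 had the highest level of all 6, the other HFD arrays were as low as NCD3, and the change was −0.04 ± 0.63 (adjusted p = 0.980; 95% interval −1.56 to 1.47). Without HFD3 it was −0.76 (adjusted p = 0.374), and over fits without 1 array it ran from −0.76 to 0.32 (0.05 with median centring), and the interval holds folds of 0.339 to 2.78.

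Trem3, a Tyrobp-linked receptor of mouse myeloid cells, was at 7.29, 7.24 and 6.83 on the NCD arrays and 6.76, 6.41 and 7.31 on the HFD arrays. Its lowest value was on HFD2 and its highest on HFD3, and the change was −0.29 ± 0.24 (adjusted p = 0.534; 95% interval −0.87 to 0.29), or −0.08 without HFD2 and −0.53 without HFD3. Treml2, a receptor of lymphoid and myeloid cells, was above the background level of 6.23 on 2 of 6 arrays, NCD1 (6.24) and HFD3 (6.29). Its change was −0.06 ± 0.12 (adjusted p = 0.813; −0.18 to 0.01 over fits without 1 array), a measurement that near background can understate a difference.

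Markers of neutrophils were also highest on HFD3. Of 13 markers 8 had a mean above background, and Camp, Ngp, Ltf, Mpo and Elane did not; the mean level of the 13 was 7.28 to 7.66 in NCD and 6.53 to 8.42 in HFD. S100a8, a calprotectin subunit, was at 8.86, 10.34 and 9.86 on the NCD arrays and 7.35, 7.14 and 12.83 on the HFD arrays, and S100a9, the other subunit, reached 13.52 on HFD3 against 7.77 and 7.90 on the other HFD arrays. All 8 measured monocyte markers, Ly6c2 and Ccr2 among them, lay above background, with a mean of 11.90 to 12.70 in NCD and 11.50 to 11.80 in HFD. The part of these cells in the Trem1 and Trem3 levels was not tested.

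**Figure D3:**
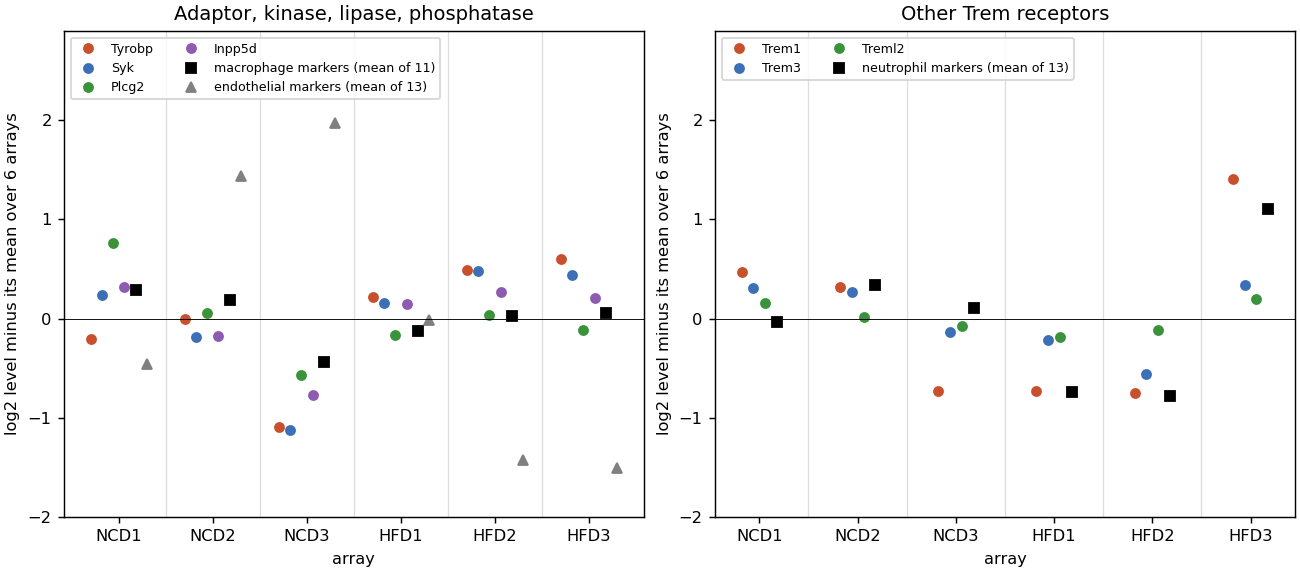
Log2 level on each array minus the mean of that gene or marker list over the 6 arrays, for Tyrobp, Syk, Plcg2 and Inpp5d with the means of macrophage and endothelial markers (left) and for Trem1, Trem3 and Treml2 with the mean of neutrophil markers (right). The first 4 genes are lowest on NCD3, where endothelial markers are highest, and Trem1, Trem3, Treml2 and the neutrophil markers are highest on HFD3.

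Of the adaptors, Tyrobp was at 14.60, 14.80 and 13.71 on the NCD arrays and 15.02, 15.30 and 15.41 on the HFD arrays. The HFD arrays all lay above the NCD arrays, but the lowest HFD value was 0.22 above the highest NCD value, and NCD3 stood lowest of the 6. The change was 0.87 ± 0.29 (adjusted p = 0.122, unadjusted p = 0.0201), with a 95% interval of the fold of 1.14 to 2.95. It was called in 0 of 16 alternatives (adjusted p 0.0720 to 0.709), and was 0.55 without NCD3. Trem2 and Tyrobp were thus 2 of 9 genes whose diets did not overlap, with HFD above, against 17.6% of all genes.

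Hcst, which neighbours Tyrobp on chromosome 7, was at 7.11, 7.16 and 6.83 on the NCD arrays and 6.78, 6.98 and 6.95 on the HFD arrays, on average 0.74 log2 above background. Its diets overlapped and its change was −0.13 ± 0.12 (adjusted p = 0.584), with a 95% interval of the fold of 0.752 to 1.11, so a rise of the size seen in Trem2 lies outside it. Leaving out 1 array moved the Hcst change between −0.23 (without NCD3) and −0.06 (without NCD2). Fcer1g, the related adaptor of Fc receptors, was at 14.75, 14.89 and 14.20 on the NCD arrays and 15.14, 15.29 and 15.37 on the HFD arrays, a pattern with the lowest value on NCD3 as for Tyrobp, without a call (0.65 ± 0.19, adjusted p = 0.0924). Klrk1, the receptor that pairs with Hcst on natural killer and T cells, was at −0.74 ± 0.21 (adjusted p = 0.0838), and 7 of 12 measured T and natural killer cell markers, Ncr1 and Prf1 among them, had a mean below background.

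Syk, the kinase that binds the phosphorylated adaptor, was at 12.43, 12.01 and 11.07 on the NCD arrays and 12.35, 12.67 and 12.63 on the HFD arrays. NCD1 lay among the HFD arrays and NCD3 was lowest, so the diets overlapped, and the change was 0.71 ± 0.34 (adjusted p = 0.257; 95% interval of the fold 0.940 to 2.86). Without NCD1 it was 1.01 (adjusted p = 0.0685) and without NCD3 0.33 (adjusted p = 0.342). The HFD arrays were close together (SD 0.18), and the NCD arrays were apart (SD 0.70).

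Plcg2, the phospholipase that releases calcium downstream of Syk, was at 11.85, 11.15 and 10.52 on the NCD arrays and 10.93, 11.13 and 10.98 on the HFD arrays. The HFD arrays lay within the NCD range, and the change was −0.16 ± 0.32 (adjusted p = 0.814; 95% interval of the fold 0.529 to 1.51). Over fits without 1 array it ran from −0.49 to 0.18, the highest of these without NCD1. Inpp5d, the phosphatase that opposes the pathway, was at 12.14, 11.65 and 11.05 on the NCD arrays and 11.98, 12.10 and 12.03 on the HFD arrays. It was the gene with the tightest HFD arrays of the 9 (SD 0.06), NCD1 lay above all of them, and the change was 0.42 ± 0.26 (adjusted p = 0.396; 95% interval of the fold 0.864 to 2.07). Without NCD3 it was 0.14 and without NCD1 0.68, with no call in either fit.

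Tyrobp, Syk, Plcg2 and Inpp5d had their lowest value on the same array, NCD3. That array had the lowest mean of macrophage markers (13.76) and the highest mean of endothelial markers (14.41). All 13 measured endothelial markers, Pecam1, Cdh5 and Vwf among them, lay above background, 0 of them were called (11 lower at an unadjusted p below 0.05, limma), and their mean was 11.98 to 14.41 in NCD and 10.93 to 12.43 in HFD. With that mean as a covariate, Tyrobp was at 0.41, Syk at −0.05, Plcg2 at −0.89 and Inpp5d at −0.16, 0 of them called, and Trem2 was at 2.61 (adjusted p = 0.00906). Because most of these markers were lower in HFD, the covariate is partly confounded with diet. The part of endothelial cells in the levels and changes of these genes was not tested.

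**Figure D4:**
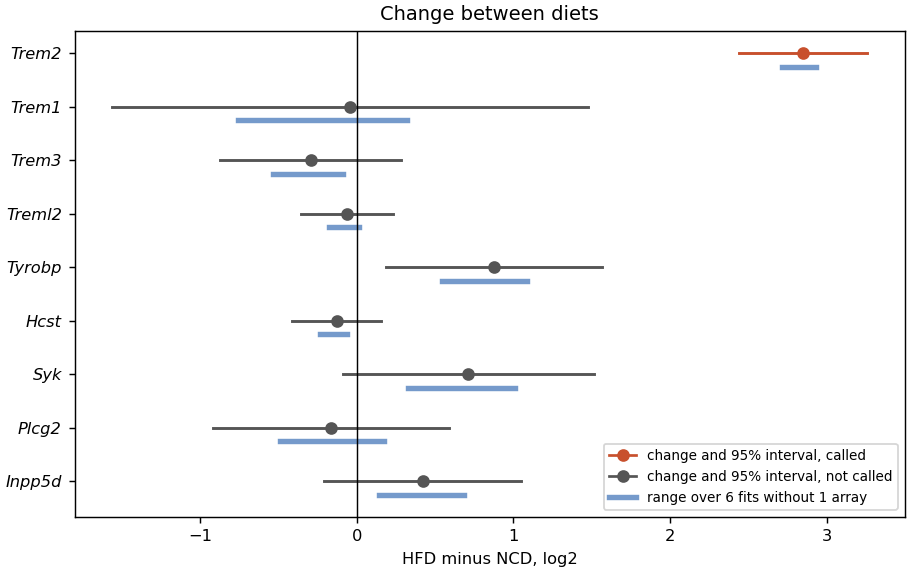
Change between diets (log2, HFD minus NCD) with its 95% interval from limma for the 9 genes, and below each the range of the change over 6 fits that leave out 1 array. The interval of Trem2, 2.44 to 3.26, lies above those of the other 8, and the interval of Tyrobp, 0.19 to 1.56, does not hold 0 although the gene was not called over all genes.

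The wider pathway was described by 9 lists with 153 distinct measured genes, of which 36 were higher, 6 lower and 111 not called (27.5% called, against 7.83% of all genes; medians 0.17 and 0.01). The share over all genes includes many below background, whereas most listed genes lay above it, so these shares are not of like genes. Among Trem2 and the 15746 other genes above background, fitted alone, 1881 were higher and 1020 lower. Of the pathway genes 39 and 9 were so in that fit. How many distinct pathway genes lay above background was not counted, so no share of them is given. The contrast of 27.5% with 7.83% is therefore no result about the pathway. These lists were drawn up with earlier results of these data known. Those higher numbered 16 when NCD2 was left out, 11 for HFD2, 10 for HFD3 and 12 with the endothelial covariate, and the count lower ran from 1 to 13 over fits without 1 array (1 without NCD2, HFD2 or HFD3, 2 without HFD1, 11 without NCD3, 13 without NCD1). Of the 42 genes called, 11 were called in all 6 fits that omit an array, and 13 were called with the covariate.

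Markers of other cells also differed between diets. All 8 mesothelial markers fell (median −1.69; 3 with a mean above background, and Msln, Krt19, Krt8, Wt1 and Muc16 below), with a mean level of 7.39 to 7.99 in NCD and 5.60 to 5.79 in HFD. Of 12 smooth muscle markers, all above background, 9 fell and 3 were not called (median −2.12), with a mean of 9.80 to 11.56 in NCD and 7.66 to 8.57 in HFD. Of 8 markers of fibroblasts and progenitors, 7 above background and Pi16 below, 4 rose, the collagens Col1a1, Col1a2 and Col3a1 and the proteoglycan Lum. The other 4 were not called, and 2 of them were lower at an unadjusted p below 0.05 (limma). The mean level of the 8 was 8.80 to 9.24 in NCD and 9.51 to 10.15 in HFD. Of 8 mast cell markers, 7 above background and Ms4a2 below, 4 rose and 4 were not called, 1 of them lower at an unadjusted p below 0.05 (limma). The mean level of these 8 was 6.64 to 6.74 in NCD and 7.20 to 7.53 in HFD. The part of these cells in the changes of the 9 genes and of the lists was not tested.

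Among 12 measured receptors that pair with Tyrobp, Hcst or Fcer1g, 4 rose, 1 fell and 7 were not called (median 0.01). At an unadjusted p below 0.05 (limma), 4 were higher and 4 lower. Cd200r4, an activating relative of the CD200 receptor, was at 9.94, 9.10 and 8.78 on the NCD arrays and 11.42, 11.77 and 11.84 on the HFD arrays and rose 5.29-fold (2.40 ± 0.30, adjusted p = 0.00967). Cd300lb, an activating receptor that pairs with Tyrobp, was at 12.56, 12.17 and 11.73 on the NCD arrays and 13.76, 14.12 and 14.14 on the HFD arrays and rose 3.62-fold (1.85 ± 0.23, adjusted p = 0.00953). In both the diets did not overlap and the NCD arrays were the more spread, and both lost their call without NCD2, HFD2 or HFD3.

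Siglec15, a Tyrobp-linked sialic acid receptor known from osteoclasts, rose (limma, adjusted p = 0.00652). It was at 6.17, 6.15 and 6.07 on the NCD arrays and 7.06, 6.93 and 6.85 on the HFD arrays. All 3 NCD values lay below background, and the HFD mean was 1.64-fold above that level. That figure leaves out the spread between arrays, so it is no lower limit. The measured rise, which levels below background can understate, was 1.77-fold, with a 95% interval of 1.53 to 2.03. Cd300ld rose by 1.01 ± 0.21 (adjusted p = 0.0368). Siglech, a Tyrobp-linked receptor of plasmacytoid dendritic cells and some macrophages, fell by 1.32 (adjusted p = 0.00734), from 8.11, 8.45 and 7.94 to 6.96, 6.73 and 6.84. Siglech, and Siglec15 with its NCD values below background, kept their call without each array, while Cd300ld lost it without NCD2, HFD1, HFD2 or HFD3. Csf1r, the macrophage growth factor receptor, was at 0.18 ± 0.18 (adjusted p = 0.628). The number higher was 1 without NCD2, HFD2 or HFD3, and the number lower was 4 without NCD3.

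Of 13 adaptors and partners of the same motif, 1 rose, 2 fell and 10 were not called (median 0.17). Fcgr1, the high-affinity Fc receptor, rose 2.69-fold (1.43 ± 0.21, adjusted p = 0.0150), with 10.91, 11.20 and 10.47 on the NCD arrays and 12.12, 12.22 and 12.52 on the HFD arrays. The T-cell receptor chain Cd247 fell by 0.69 (adjusted p = 0.0499) and the integrin Itgb3 by 0.67 (adjusted p = 0.0176). The number higher was 3 without NCD1 and 0 without HFD2 or HFD3, and the number lower was 0 without NCD2 or any of the HFD arrays.

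Of 15 measured ligands, known or reported, 2 rose, 2 fell and 11 were not called (median −0.12). Lgals3, galectin-3, was at 11.27, 11.13 and 10.71 on the NCD arrays and 12.21, 12.24 and 12.23 on the HFD arrays and rose 2.28-fold (1.19 ± 0.16, adjusted p = 0.0122), and Cd276, a disputed Treml2 ligand, rose by 0.85 ± 0.10 (adjusted p = 0.00834). Clu, the lipoprotein component clusterin, was at 10.34, 11.63 and 12.29 on the NCD arrays and 9.08, 8.02 and 8.03 on the HFD arrays and fell 8.24-fold (−3.04 ± 0.53, adjusted p = 0.0232), and App, the amyloid precursor, fell by 0.55 (adjusted p = 0.0284). Like the endothelial markers, Clu was highest on NCD3. Apoe, the apolipoprotein that Trem2 binds, was at 15.05, 15.51 and 14.86 on the NCD arrays and 14.88, 15.15 and 15.03 on the HFD arrays, overlapping between diets (−0.12 ± 0.18, adjusted p = 0.760), and the Trem1 ligand Pglyrp1 was at −0.59 ± 0.23 (adjusted p = 0.173). The number higher was 1 without NCD2, HFD2 or HFD3, and the number lower was 0 without NCD2, HFD2 or HFD3, 1 without NCD3 or HFD1 and 3 without NCD1. With the endothelial covariate Clu was at −1.56 and kept its call (limma, adjusted p = 0.0135), while Lgals3, Cd276 and App lost theirs.

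Of 11 measured genes of receptor shedding and cleavage, 3 rose, 0 fell (1 at an unadjusted p below 0.05) and 8 were not called (median 0.20). Adam17, a protease that sheds the Trem2 ectodomain, was at 12.58, 12.33 and 12.26 on the NCD arrays and 12.99, 13.16 and 13.22 on the HFD arrays and rose 1.66-fold (0.73 ± 0.13, adjusted p = 0.0261), and Adam10, the other main sheddase, was at −0.22 ± 0.10 (adjusted p = 0.234). The gamma-secretase genes Aph1c (1.33 ± 0.23, adjusted p = 0.0219) and Psen2 (0.60 ± 0.12, adjusted p = 0.0345) rose too. None of these calls held without NCD2, HFD2 or HFD3, and 1 held without NCD3 or HFD1, that of Aph1c. With the endothelial covariate 0 of the 3 were called, at 0.81 (adjusted p = 0.126) for Aph1c, 0.46 (adjusted p = 0.197) for Adam17 and 0.56 (adjusted p = 0.214) for Psen2.

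Of 10 measured Src-family and proximal kinases and their regulators, 0 were called by limma, with 3 higher and 1 lower at an unadjusted p below 0.05 (median 0.05). Btk, a kinase that acts on Plcg2, was at 11.90, 11.26 and 10.52 on the NCD arrays and 11.99, 12.21 and 12.20 on the HFD arrays, with all HFD values above the NCD values but no call (0.90 ± 0.33, adjusted p = 0.154). Without NCD1, 3 of the 10 were higher and 1 was lower.

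Of 39 measured genes downstream of Syk, 8 rose, 0 fell (4 at an unadjusted p below 0.05) and 31 were not called (20.5% called, median 0.25). All 39 lay above background. In the fit of genes above background alone, 9 of them were higher and 1 lower. Among Trem2 and the 15746 other genes of that fit, 1881 were higher and 1020 lower. The count by itself is thus no result about the list. Pik3cb, a catalytic subunit of phosphoinositide 3-kinase, was at 11.15, 11.05 and 10.90 on the NCD arrays and 12.22, 12.25 and 12.31 on the HFD arrays and rose 2.33-fold (1.22 ± 0.11, adjusted p = 0.00470); of the 8 it alone kept its call without each array. Blnk, a linker that joins Syk to phospholipase C, was at 12.50, 11.77 and 11.12 on the NCD arrays and 13.77, 13.97 and 14.10 on the HFD arrays and rose 4.43-fold (2.15 ± 0.33, adjusted p = 0.0163). Lat2, also called NTAL, an adaptor that Syk phosphorylates, was at 10.98, 10.17 and 9.70 on the NCD arrays and 11.98, 12.29 and 12.42 on the HFD arrays and rose 3.85-fold (1.94 ± 0.32, adjusted p = 0.0194). In Blnk and Lat2 NCD3 was lowest and NCD1 highest of the NCD arrays, and the HFD values were close together.

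Rptor, the mTORC1 scaffold, rose by 0.79 ± 0.12 (adjusted p = 0.0157). The other 4, named after their values were seen, were Pik3ap1 (1.64), Sh3bp2 (1.48), Pik3r5 (1.26) and Gab2 (0.51). Card9, which links Syk to NF-kappaB, was at 8.95, 8.53 and 7.94 on the NCD arrays and 8.95, 9.04 and 8.88 on the HFD arrays without a call (0.48 ± 0.25, adjusted p = 0.298). The number higher was 1 without NCD2, HFD2 or HFD3, 5 without HFD1, 14 without NCD1 (2 lower) and 1 with the covariate.

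Of 19 measured negative regulators beside Inpp5d, 3 rose, 0 fell (2 at an unadjusted p below 0.05) and 16 were not called (median 0.52). Inppl1, also called SHIP2 and the closest relative of Inpp5d, was at 9.97, 10.16 and 10.11 on the NCD arrays and 10.94, 10.91 and 11.05 on the HFD arrays and rose 1.85-fold (0.89 ± 0.11, adjusted p = 0.00967), without overlap. The docking protein Dok1 rose by 1.04 ± 0.15 (adjusted p = 0.0126) and the inhibitory receptor Sirpa by 1.24 ± 0.23 (adjusted p = 0.0280), while the phosphatase Ptpn6 was at 0.69 ± 0.35 (adjusted p = 0.296) with 13.37, 12.80 and 11.89 on the NCD arrays and 13.25, 13.48 and 13.40 on the HFD arrays. The number higher was 8 without NCD1, 1 without NCD2 and 0 without HFD2 or HFD3, and 2 were lower without NCD3; the median was −0.05 with the covariate.

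**Figure D5:**
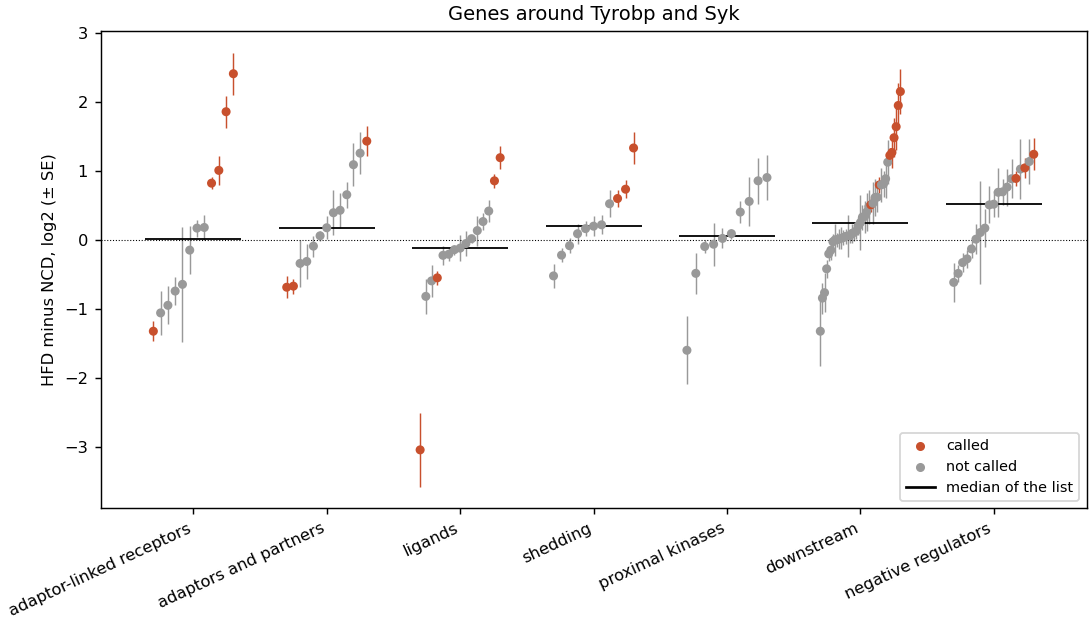
Change between diets (log2, ± SE from limma) of every measured gene of 7 lists around Tyrobp and Syk, ordered by size within each list, with called genes in orange and the list's median as a black line. Medians lie between −0.12 for ligands and 0.52 for negative regulators, and Clu is lowest at −3.04.

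Of 28 measured genes listed as linked to Trem2 in phagocytes of brain or fat, 15 rose, 1 fell and 12 were not called (57.1% called, median 0.90). The gene that fell was the growth factor Csf1 (−1.53 ± 0.30, limma, adjusted p = 0.0322), and 4 were lower at an unadjusted p below 0.05. Cd68 is also among the macrophage markers, and dependence on Trem2 was not tested. The 4 with the smallest adjusted p were the adhesion molecule Cadm1 (3.53 ± 0.19, adjusted p = 0.00138), the glycoprotein Gpnmb (2.51 ± 0.15, adjusted p = 0.00143), the proton pump subunit Atp6v0d2 (2.52 ± 0.24, adjusted p = 0.00522) and the protease Ctsl (1.52 ± 0.15, adjusted p = 0.00551). Gpnmb was at 15.18, 15.04 and 14.77 on the NCD arrays and 17.52, 17.31 and 17.70 on the HFD arrays. Those higher numbered 10 when NCD2 was left out, 8 for HFD2, 7 for HFD3 and 7 with the endothelial covariate, and the number lower 3 without NCD1 and 0 without NCD2 or any of the HFD arrays. The list shares many genes with that of lipid-associated macrophages, whose rise on these arrays was known before it was drawn up, so it is no independent evidence of a direction.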

How the data were processed

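RNA (100 ng per pool) was labelled for 1 Affymetrix array per pool, per the labels' protocols. The deposited values are the authors' log2 expression, 1 per transcript cluster and array. RMA, Affymetrix Expression Console (1.4.1.46) and, separately, Transcriptome Analysis Console (3.1.0.5) appear in the submitters' processing notes; their options and the build are not given in the sources used here. Of 65956 clusters, 30604 carried 1 gene symbol (827 updated through Entrez identifiers), and the cluster with the highest mean per gene gave 30142 genes; 6732 control probe sets were left out. Background, 6.23 log2, is the mean over arrays of the 95th percentile of 23 antigenomic probe sets. HFD and NCD were compared with limma 3.58.1 (lmFit, eBayes with a mean-variance trend) in R 4.3.3, two-sided, with Benjamini-Hochberg adjustment over all genes and calls below 0.05. The median SE of a change was 0.118; the number of arrays limits the precision, and p-values measure the spread between pools. The test was run on simulated data with independent noise for each gene. These held no difference shared by the genes of an array, so the check does not cover such differences. Figures used matplotlib 3.10.9.

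The members and the gene lists were chosen with earlier results of these data known. Named genes were the 9 members, each list's called genes (the 4 with the smallest adjusted p where over 4 were called in a direction), set partners of the members, and the 5 genes most like a called member. Of the listed genes, 30 were not analysed here. Alternatives were a replicate block, median centring, quantile normalization, filters on dim genes, no variance trend, array weights, the mean of endothelial markers as a covariate, all clusters, the mean over a gene's clusters, and leaving out each array.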

Additional observations from a re-analysis of the deposited data

How the results depend on the processing

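Trem2 was called in all 16 alternatives and the other 8 genes in none, so the counts of members called (1 higher, 0 lower) did not move. Several alternatives leave the members' changes as they were, so they are not separate tests. Trem2 relative to macrophage markers stayed between 2.78 and 2.97. Wider counts moved. Of all genes, 1494 were higher and 865 lower; median centring gave 2573 higher and 693 lower, array weights 2345 and 1937, and the endothelial covariate 261 and 322. Leaving out 1 array gave 316 to 2399 higher and 124 to 2314 lower. Of the pathway genes, 36 were higher and 6 lower; 13 were lower with array weights, 12 were higher and 1 lower with the covariate, and 10 to 52 higher and 1 to 13 lower without 1 array. Such fits have fewer residual degrees of freedom, so a lost call need not mean a smaller change; the cause was not tested. With the replicate number as a block, which the labels do not state to be a shared batch, 90 genes were higher and 54 lower, 3 and 0 of the pathway genes, and Trem2 was still called (adjusted p = 0.0377). Deviations from the diet means correlated at −0.46, −0.12 and −0.15 between arrays of the same number, and at −0.30 to 0.40 between arrays of different numbers. Deviations of 3 arrays from their own mean constrain each other, so these values cannot show whether the numbers pair the arrays. Treml2 lay below the filter at background and has no value there. Signals of Treml2, and of Hcst and Trem3 within 1 log2 of background, limit how small a change could be seen.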
